A study of Homo sapiens with 6 samples.

Results

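The 10 genes described here belong to the WNT pathway: the ligands WNT5A, WNT5B and WNT9A, the Frizzled receptors FZD2, FZD4 and FZD5, CTNNB1 (β-catenin), the nuclear factors LEF1 and TCF7L2, and AXIN2, a transcriptional output of β-catenin. They were taken by name from a table of normalized counts of 19198 genes. The names were chosen with earlier results of these data known, so the count of genes called is a description of these 10 and not of a blind choice. All 10 had a mean of at least 10 normalized counts, the minimum that 16988 of the 19198 genes met and that was required for testing. RNA-Seq was performed on MCF10A, an established, non-tumorigenic human mammary epithelial line, in 6 samples. In 3 control samples the medium held 10 µg/ml insulin, 20 ng/ml EGF, 100 ng/ml cholera toxin and 0.5 µg/ml hydrocortisone, and in 3 growth factor depleted samples it held none of these 4 agents. Both media were DMEM:F12 with 5% horse serum, penicillin, streptomycin and glutamine, so that serum was present in every sample, and depleted cells were kept without the agents until their shape had changed, for a time not given per sample. The comparison addresses how WNT pathway transcripts differ once these factors are withdrawn, a treatment the study used to change MCF10A cells from an epithelial to a spindle-like shape. The samples stand for 1 cell line, and nothing in the descriptions says that the 3 samples of a condition came from separate cultures, so p-values measure only the spread between these samples, which may be technical.

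WNT ligands are secreted, lipid-modified glycoproteins that bind Frizzled receptors on the cell surface. In the canonical arm a ligand brings Frizzled together with an LRP co-receptor, the complex that destroys β-catenin is held inactive, and β-catenin enters the nucleus, binds TCF/LEF factors and raises targets such as AXIN2, which in turn feeds back on the pathway. WNT5A and WNT5B are best known for the non-canonical arms, which act through Frizzled with ROR or RYK receptors on cell polarity and movement without stabilizing β-catenin. In the mammary gland WNT signals are known for roles in branching and in the maintenance of basal cells.

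Start-site sequences were available from RefSeq (GRCh38.p14) for 8 of the 10 genes, as 12 windows of the 250 bases before an annotated start. FZD2 and AXIN2 were not matched. Shown here are windows of 4 genes that were up-regulated on depletion, outside annotated untranslated regions: 2 with the 6 letters of a RUNX motif, the factor family the study is concerned with, and the 2 richest in G and C, which hold none of the motifs searched. Capitals mark a RUNX motif (TGTGGT) or an E-box of the kind bound by Snail and ZEB factors (CAGGTG), either one also in reverse complement. The WNT5A stretch is chr3:55487399-55487556 on the minus strand and the WNT5B stretch chr12:1628981-1629230 on the plus strand, both lying inside the gene body, before an internal start. The WNT9A stretch, chr1:227947933-227948182, and the FZD4 stretch, chr11:86955396-86955645, lie upstream of the gene on the minus strand.
WNT5A: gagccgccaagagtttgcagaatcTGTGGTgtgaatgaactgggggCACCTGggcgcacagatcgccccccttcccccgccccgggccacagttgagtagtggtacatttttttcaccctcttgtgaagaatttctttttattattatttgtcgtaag
WNT5B: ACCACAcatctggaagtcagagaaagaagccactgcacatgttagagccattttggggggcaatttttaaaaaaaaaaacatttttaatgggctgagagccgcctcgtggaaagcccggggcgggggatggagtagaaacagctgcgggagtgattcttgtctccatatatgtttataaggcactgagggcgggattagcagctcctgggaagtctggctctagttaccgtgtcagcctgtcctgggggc
WNT9A: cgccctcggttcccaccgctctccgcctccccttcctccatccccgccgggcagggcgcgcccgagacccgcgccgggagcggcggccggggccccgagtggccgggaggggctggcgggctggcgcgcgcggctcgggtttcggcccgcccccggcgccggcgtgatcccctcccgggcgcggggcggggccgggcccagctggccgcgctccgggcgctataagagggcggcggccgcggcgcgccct
FZD4: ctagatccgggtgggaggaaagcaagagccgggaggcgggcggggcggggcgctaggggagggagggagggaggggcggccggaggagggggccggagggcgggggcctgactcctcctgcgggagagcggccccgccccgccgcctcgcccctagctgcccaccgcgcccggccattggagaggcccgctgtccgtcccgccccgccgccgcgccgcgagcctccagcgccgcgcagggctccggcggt

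In WNT5A the RUNX letters lie 226 to 221 bases before the start and the E-box letters, in reverse complement, 204 to 199 bases before it. In WNT5B the RUNX letters, in reverse complement, lie 250 to 245 bases before the start. A RUNX match was found in 3 of the 12 windows (WNT5A, WNT5B and LEF1), against 11.0% of the 35116 RefSeq windows searched in the same way on both strands. All 250 bases of the LEF1 window lie in annotated untranslated regions, which these counts include. An E-box match was found in 2 windows (WNT5A and FZD5), against 17.5% of all windows. The TCF/LEF motif CTTTGAT was in 0 of the 12, against 2.26% of all windows. Content of G and C ran from 42.4% to 84.4% over the 12 windows, with 84.4% for WNT9A and 80.8% for FZD4. A match gives letters in a window, not a binding site.

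The libraries held 7472418 to 28672630 reads on genes, so that 3 reads, taken as the floor of detection, stood for 1.76 to 6.71 normalized counts (counting error only). Depleted replicate 1 stood apart from the others in CDH1 (E-cadherin), at 609.6 normalized counts against 12961 to 20039 in the other 5 samples, and calls that change without it are given with and without it below. The labels call the cells luminal ductal: the keratin genes KRT8 and KRT18 were at 1716 normalized counts or more in every sample, and basal KRT5 was at 562.0 to 38503. KRT19 was at 111.3 to 214.3 in controls and 25.6 to 30.2 in depleted samples, the 1 luminal marker of 6 tested that was called, lower (limma adjusted p = 0.0196), and ESR1 was at 63.9 to 205.5 and 4.6 to 32.8, lower without overlap but not called (limma adjusted p = 0.0632). KRT8 and KRT18 went the other way, with log2 fold changes of 1.10 and 1.17 (limma adjusted p = 0.336 and 0.22, not called). FOXA1 (-0.72) and GATA3 (-0.28) were not called either. The 6 luminal markers, mostly KRT8 and KRT18, summed to 5538 to 15566 normalized counts in controls and 17240 to 29139 in depleted samples. All 9 epithelial markers passed the minimum mean, and 1 of them (TP63) was called, lower on depletion. CDH1, EPCAM, KRT5 and DSP had log2 fold changes of -1.67, -0.98, -2.04 and -1.63. KRT14, KRT17, KRT8 and KRT18 had 2.69, 2.44, 1.10 and 1.17. Besides TP63, KRT17 was higher and DSP lower without overlap (limma adjusted p = 0.0877 and 0.0933). The 9 markers summed to 65068 to 116607 normalized counts in controls and 42311 to 191260 in depleted samples, overlapping ranges. Of 9 fibroblast markers, 8 were tested and 6 were called higher on depletion, with summed levels of 814 to 1721 normalized counts in controls and 15875 to 35317 in depleted samples. THY1 was at 0 to 1.0 in controls and 2.7 to 6.7 in depleted samples. The leukocyte markers summed to at most 26 normalized counts in any sample, with PTPRC at 0 to 2.0 in controls and 10.1 to 13.8 in depleted samples, and of 3 endothelial markers tested 1 (CDH5) was called. The part of the fibroblast marker genes' shift in the results below was not tested, and in bulk samples more cells of a type and more RNA per cell cannot be told apart.

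Of the 10 genes, 7 were up-regulated in growth factor depleted cells, none was down-regulated and 3 did not pass the test (limma on log2 of the normalized count + 1, a call needing both a Benjamini-Hochberg adjusted p below 0.05 over all genes tested and a 2-fold difference or more). The 7 were all 3 ligands, FZD2, FZD4, LEF1 and AXIN2, and the 3 were FZD5, CTNNB1 and TCF7L2. Over all 16988 genes tested, 4.36% were called higher (741 genes) and 1.97% lower (335 genes). In 8 of the 10 genes all depleted samples exceeded all controls, and in 0 the reverse held, where 13.5% of all genes were higher and 12.1% lower without overlap. The median log2 fold change was 2.44 over the 10 genes and -0.03 over all genes tested. AXIN2 is at or under the floor in controls. Setting it to its lower bound could not move the median of the 10 genes, as that bound lies above the middle of their values. Leaving out depleted replicate 1 gave 6 genes called, and leaving out depleted replicate 2 or depleted replicate 3 gave 3 (WNT5B, FZD2 and AXIN2 in both cases).

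**Figure D1:**
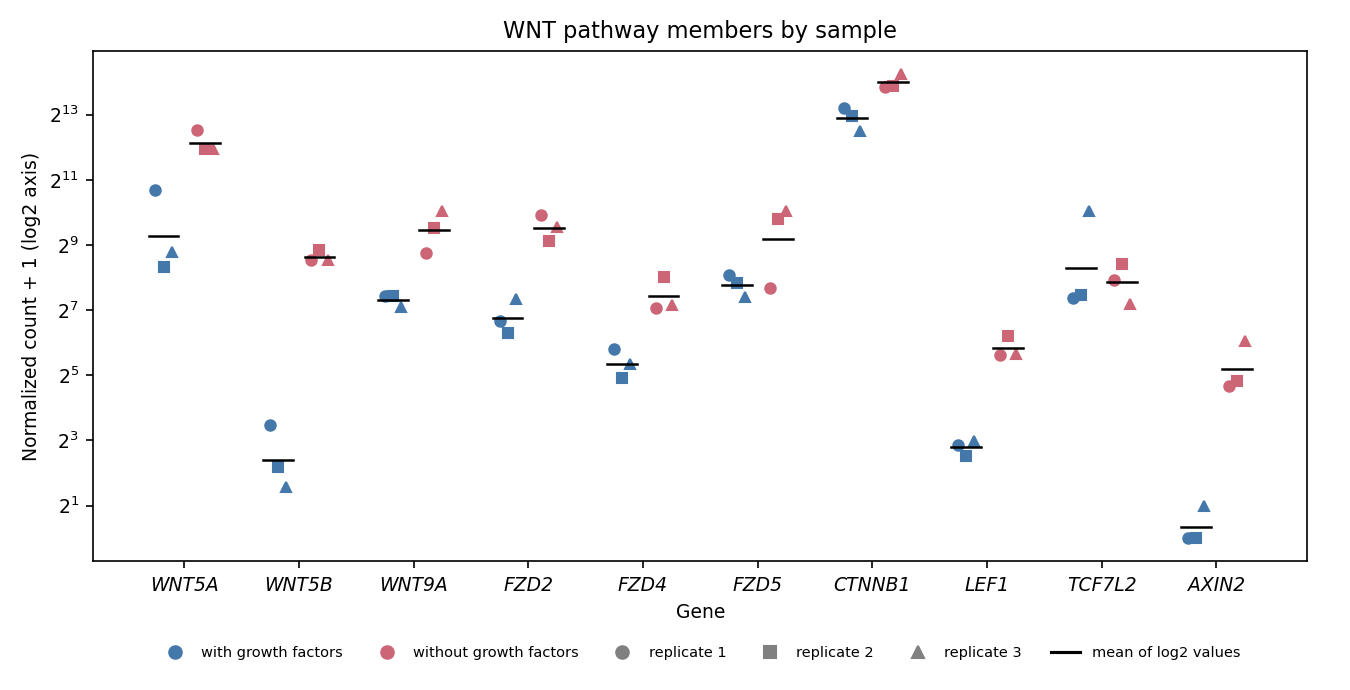
Normalized count + 1 on a log2 axis for each of the 10 genes, with 3 control samples (blue) and 3 growth factor depleted samples (red), the marker shape giving the replicate number and the bar the mean of the log2 values. The groups overlap for FZD5, where depleted replicate 1 (205.0 normalized counts) falls among the controls, and for TCF7L2, where control replicate 3 (1045.7) lies above all depleted samples; the other 8 genes show no overlap, with depleted samples higher.

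WNT5A (ENSG00000114251.12, chr3:55465715-55490539 on the minus strand, hg38), the archetypal non-canonical ligand, was at 1636.7, 321.0 and 435.8 normalized counts in control replicates 1, 2 and 3, and at 5923.7, 3943.8 and 3908.4 in depleted replicates 1, 2 and 3. Every depleted sample was above every control, and control replicate 1 was well above the other 2 controls. The mean was 798 ± 729 in controls and 4592 ± 1153 in depleted cells (SD, n = 3 each), a ratio of 5.76. The log2 fold change was 2.88 with a standard error of 0.57 (95% interval 1.58 to 4.17, limma adjusted p = 0.0212). With edgeR on the reads recovered from the values the adjusted p was 0.0494 with TMM scaling and 0.0522, no longer a call, with the authors' size factors. The call was lost in 4 of 6 fits that left out 1 sample, with limma adjusted p of 0.062 without control replicate 2, 0.0596 without depleted replicate 1, 0.0705 without depleted replicate 2 and 0.0651 without depleted replicate 3, and the log2 fold change in the 6 fits was 2.41 to 3.59, the highest without control replicate 1. A noncoding gene on the opposite strand inside it, WNT5A-AS1 (ENSG00000244586.1), was near the floor, at 0 to 1.8 normalized counts in controls and 7.2 to 12.8 in depleted cells.

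WNT5B (ENSG00000111186.11, chr12:1529891-1647212, plus strand), the closest relative of WNT5A and also a non-canonical ligand, went from near the floor in controls to well above it in every depleted sample. It was at 10.0, 3.5 and 2.0 normalized counts in controls, which are 8, 6 and 2 reads, and at 367.0, 455.0 and 373.4 in depleted cells, which are 401, 694 and 167 reads. Controls were at or near the floor of 3 reads, while the 3 depleted samples lay close together. The mean was 5.17 ± 4.28 in controls and 398 ± 49.1 in depleted cells (SD, n = 3 each). The log2 fold change was 6.23 ± 0.58 (SE), with a 95% interval of 4.91 to 7.55 and a limma adjusted p of 0.000987. It was called in all 6 fits that left out 1 sample, with values of 5.82 to 6.76. As controls held few reads, the size of the change depends on the count added before the logarithm, and it was 4.78 with 10 added in place of 1 (limma adjusted p = 0.00045).

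WNT9A (ENSG00000143816.7, chr1:227918656-227947932, minus strand), a ligand known from joint formation that can signal through β-catenin, was at 170.4, 172.2 and 135.8 normalized counts in controls and at 430.2, 735.7 and 1064.3 in depleted cells. The groups did not overlap, and the depleted samples spread more widely than the controls. The mean was 159 ± 20.6 against 743 ± 317 (SD, n = 3 each), and the log2 fold change was 2.13 ± 0.39 (SE, 95% interval 1.25 to 3.01, limma adjusted p = 0.0151). The call was lost without control replicate 1 (limma adjusted p = 0.0503), depleted replicate 2 (0.0791) or depleted replicate 3 (0.0837), where the log2 fold change stayed between 1.82 and 2.18.

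Of the 3 receptors, FZD2 and FZD4 rose and FZD5 did not pass the test. FZD2 (ENSG00000180340.6, chr17:44557484-44561262, plus strand), a receptor known to bind WNT5A, was at 101.5, 77.9 and 160.3 normalized counts in controls and at 971.1, 559.3 and 742.3 in depleted cells. The highest control was well below the lowest depleted sample. The mean was 113 ± 42.5 against 758 ± 206 (SD, n = 3 each), with a log2 fold change of 2.76 ± 0.38 (SE, 95% interval 1.88 to 3.64, limma adjusted p = 0.00505), and the gene was called in all 6 fits that left out 1 sample (2.52 to 3.04).

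FZD4 (ENSG00000174804.3, chr11:86945679-86955395, minus strand), which binds the non-WNT ligand Norrin as well as WNTs, was at 55.1, 29.3 and 39.3 normalized counts in controls and at 133.6, 258.3 and 143.1 in depleted cells. Depleted replicate 2 was the highest, and the groups did not overlap. The mean was 41.3 ± 13.0 against 178 ± 69.4 (SD, n = 3 each). The log2 fold change was 2.07 ± 0.46 (SE, 95% interval 1.01 to 3.12, limma adjusted p = 0.0353). The call was lost after quantile normalization (limma adjusted p = 0.0568) and in 5 of 6 fits that left out 1 sample, more than for any other of the 7: limma adjusted p was 0.0618 without control replicate 1, 0.101 without control replicate 2, 0.06 without depleted replicate 1, 0.18 without depleted replicate 2 and 0.123 without depleted replicate 3, with log2 fold changes of 1.77 to 2.29.

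FZD5 (ENSG00000163251.3, chr2:207762598-207769906, minus strand), a receptor for canonical and non-canonical ligands, was at 272.0, 228.5 and 169.2 normalized counts in controls and at 205.0, 896.9 and 1050.9 in depleted cells. Depleted replicate 1 lay within the control range, whereas the other 2 depleted samples were above all controls. The mean was 223 ± 51.6 against 718 ± 450.5 (SD, n = 3 each), and the log2 fold change of 1.40 ± 0.60 (SE, 95% interval 0.03 to 2.76) did not pass (limma adjusted p = 0.239). Without depleted replicate 1, the sample with low CDH1, it was 2.14 and passed (limma adjusted p = 0.0173), and DESeq2 on all 6 samples called it as well (adjusted p = 0.0375).

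CTNNB1 (ENSG00000168036.15, chr3:41194741-41260096, plus strand), which encodes β-catenin, the cell adhesion protein that also carries the canonical signal to the nucleus, was at 9492.1, 8007.4 and 5837.5 normalized counts in controls and at 14743.4, 14915.7 and 19448.2 in depleted cells. Every depleted sample was above every control. The mean was 7779 ± 1838 against 16369 ± 2668 (SD, n = 3 each). The log2 fold change of 1.09 ± 0.35 (SE, 95% interval 0.29 to 1.89) did not pass (limma adjusted p = 0.116; edgeR adjusted p = 0.115), while DESeq2 called it (adjusted p = 0.023). It passed in none of the 6 limma fits that left out 1 sample (0.9 to 1.25). These are transcript levels, and β-catenin is regulated largely by the stability of its protein, which was not measured here.

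LEF1 (ENSG00000138795.8, chr4:108047545-108168956, minus strand), a DNA-binding partner of β-catenin and itself a target of it, was at 6.3, 4.7 and 6.9 normalized counts in controls (5, 8 and 7 reads) and at 48.5, 73.4 and 49.2 in depleted cells (53, 112 and 22 reads). Both groups were tight and far apart. The mean was 5.95 ± 1.13 against 57.05 ± 14.2 (SD, n = 3 each), with a log2 fold change of 3.05 ± 0.53 (SE, 95% interval 1.84 to 4.26, limma adjusted p = 0.0126). The call was lost without depleted replicate 2 (limma adjusted p = 0.0929) or depleted replicate 3 (0.0716), where the log2 fold change was 2.86 and 3.14. With 10 in place of 1 added before the logarithm it was 2.05 (limma adjusted p = 0.011).

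TCF7L2 (ENSG00000148737.14, chr10:112950247-113167678, plus strand), the other DNA-binding partner of β-catenin among the 10 genes, was at 165.4, 176.3 and 1045.7 normalized counts in controls and at 244.4, 343.6 and 145.3 in depleted cells. Control replicate 3 was far above the other 5 samples, and the groups overlapped. The mean was 462.5 ± 505 against 244 ± 99.1 (SD, n = 3 each), and the log2 fold change of -0.44 ± 0.71 (SE, 95% interval -2.06 to 1.18) did not pass (limma adjusted p = 0.795). Its sign rested on 1 library: without control replicate 3 it was 0.43 (limma adjusted p = 0.499).

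AXIN2 (ENSG00000168646.11, chr17:65528563-65561648, minus strand), a scaffold of the destruction complex that is widely used as a readout of β-catenin signaling, was at 0, 0 and 1.0 normalized counts in controls (0, 0 and 1 read) and at 24.7, 27.5 and 64.8 in depleted cells (27, 42 and 29 reads). It was under the floor in every control and above it in every depleted sample, so depleted cells were at least 13.8-fold higher (floor of 3 reads in each control library). The mean in depleted cells was 39.0 ± 22.4 (SD, n = 3). The gene passed the test (limma adjusted p = 0.00652, edgeR adjusted p = 0.0117) and was called in all 6 fits that left out 1 sample. The fitted log2 fold change was 4.86 ± 0.72 (SE), a value that depends on the count of 1 added before the logarithm and is no bound.

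**Figure D2:**
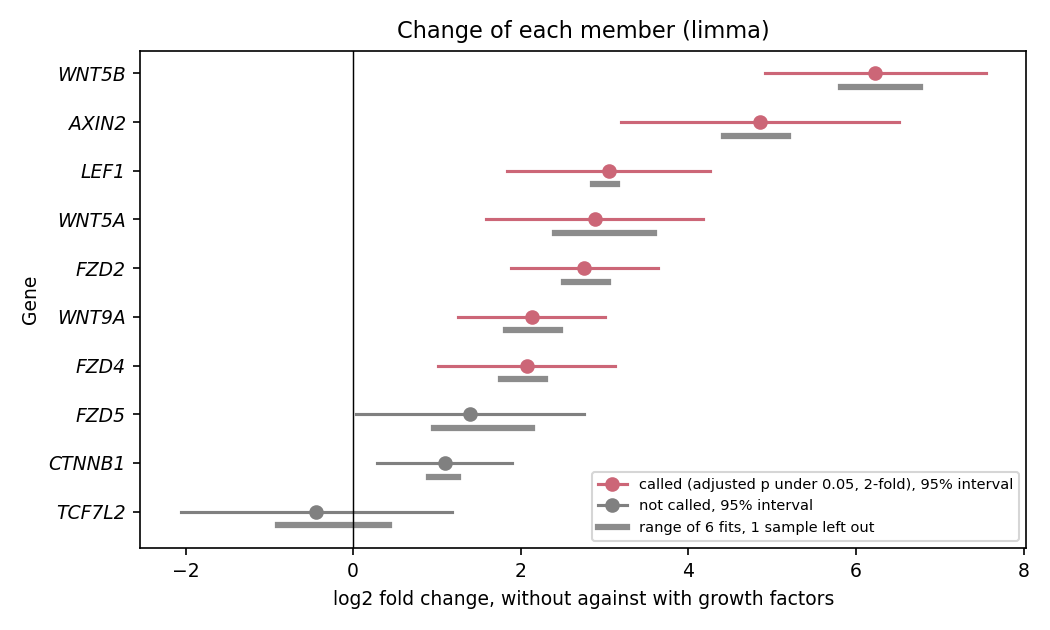
Log2 fold change without against with growth factors for each of the 10 genes from limma, ordered by the fitted value, with its 95% interval (red for genes called, grey for genes not called) and, under each, the range over 6 fits that each left out 1 sample (thick grey bar). The intervals of the 7 genes called lie above 0, from FZD4 (1.01 to 3.12) to WNT5B (4.91 to 7.55), and the leave-one-out range crosses 0 for TCF7L2 (-0.9 to 0.43).

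Several of the 10 genes overlap other genes in Gencode v44: FBXL14 with WNT5B, PRSS23 with FZD4, ULK4 with CTNNB1 and LEF1-AS1 with LEF1, each on the opposite strand, and a coding gene, ENSG00000266076, on the same strand as AXIN2. The libraries were strand-specific, but the strand setting used in counting is not given in the sources used here, so reads in the shared stretches are uncertain for these genes.

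Set against each other per kb of exon, the level of CTNNB1 was the highest of the 10 genes in both conditions, at 662 ± 156 normalized counts per kb in controls and 1390 ± 227 in depleted cells (SD, n = 3 each). WNT5A came next in both, at 112 ± 102 and 642 ± 161 per kb, and AXIN2 was the lowest in both, at 0.0631 ± 0.109 and 7.51 ± 4.31 per kb. In controls the order after WNT5A was TCF7L2, WNT9A, FZD5, FZD2, FZD4, WNT5B and LEF1. The sample ranges of neighbours in this order were apart for CTNNB1 and WNT5A, for FZD2 and FZD4, for FZD4 and WNT5B, and for LEF1 and AXIN2, and overlapped for the rest. In depleted cells the order after WNT5A was FZD2, WNT9A, FZD5, WNT5B, TCF7L2, FZD4 and LEF1, with ranges apart for CTNNB1 and WNT5A, WNT5A and FZD2, WNT5B and TCF7L2, and FZD4 and LEF1. WNT5B thus stood at 1.22 ± 1.01 per kb in controls, below FZD4, and at 94.0 ± 11.6 per kb in depleted cells, above TCF7L2 (36.3 ± 14.7) and FZD4 (24.1 ± 9.4).

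Within each family, shares of the summed level per kb showed which members made up the total. The 10 WNT ligands in the table summed to 301.2, 136.2 and 182.6 normalized counts per kb in controls and to 1105, 1113 and 1067 in depleted cells. WNT5A held 32.9% to 76.0% of the sum in controls and 49.5% to 74.9% in depleted cells, overlapping ranges. WNT5B held 0.254% to 0.785% and 7.83% to 9.64%, ranges that did not overlap, and WNT9A held 14.1% to 31.6% and 9.72% to 24.9%.

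The 8 Frizzled receptors in the table summed to 1530, 983.1 and 1077 normalized counts per kb in controls and to 1406, 1800 and 1663 in depleted cells, overlapping ranges. FZD6, named here after its values were seen, held most of this level, with 61.7% to 71.5% in controls and 47.1% to 53.8% in depleted cells. FZD2 held 1.76% to 3.94% in controls and 8.22% to 18.3% in depleted cells, and FZD4 0.403% to 0.494% and 1.17% to 1.94%, both without overlap. FZD5 held 2.23% to 3.30% and 2.07% to 8.98%.

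The 4 TCF/LEF factors summed to 34.83, 56.73 and 195.4 normalized counts per kb in controls and to 56.7, 115.9 and 60.38 in depleted cells. TCF7L2 held 46.1% to 79.5% of the sum in controls and 35.7% to 64.0% in depleted cells. In control replicate 3 TCF7L2 was at 155 per kb, against 24.6 and 26.2 in control replicates 1 and 2. This lowers the shares of the other factors in that sample. LEF1 held 0.657% to 3.36% in controls and 11.8% to 16.0% in depleted cells, and TCF7L1, named after its values were seen, 0.233% to 3.86% and 12.4% to 18.6%, in both cases without overlap. The share of TCF7L1 rests on a gene that did not pass the test (log2 fold change 3.31 ± 1.15 (SE), limma adjusted p = 0.144). Its controls were spread widely, at 1.3, 0.6 and 33.4 normalized counts, and control replicate 3 lay above depleted replicate 1 (31.1).

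**Figure D3:**
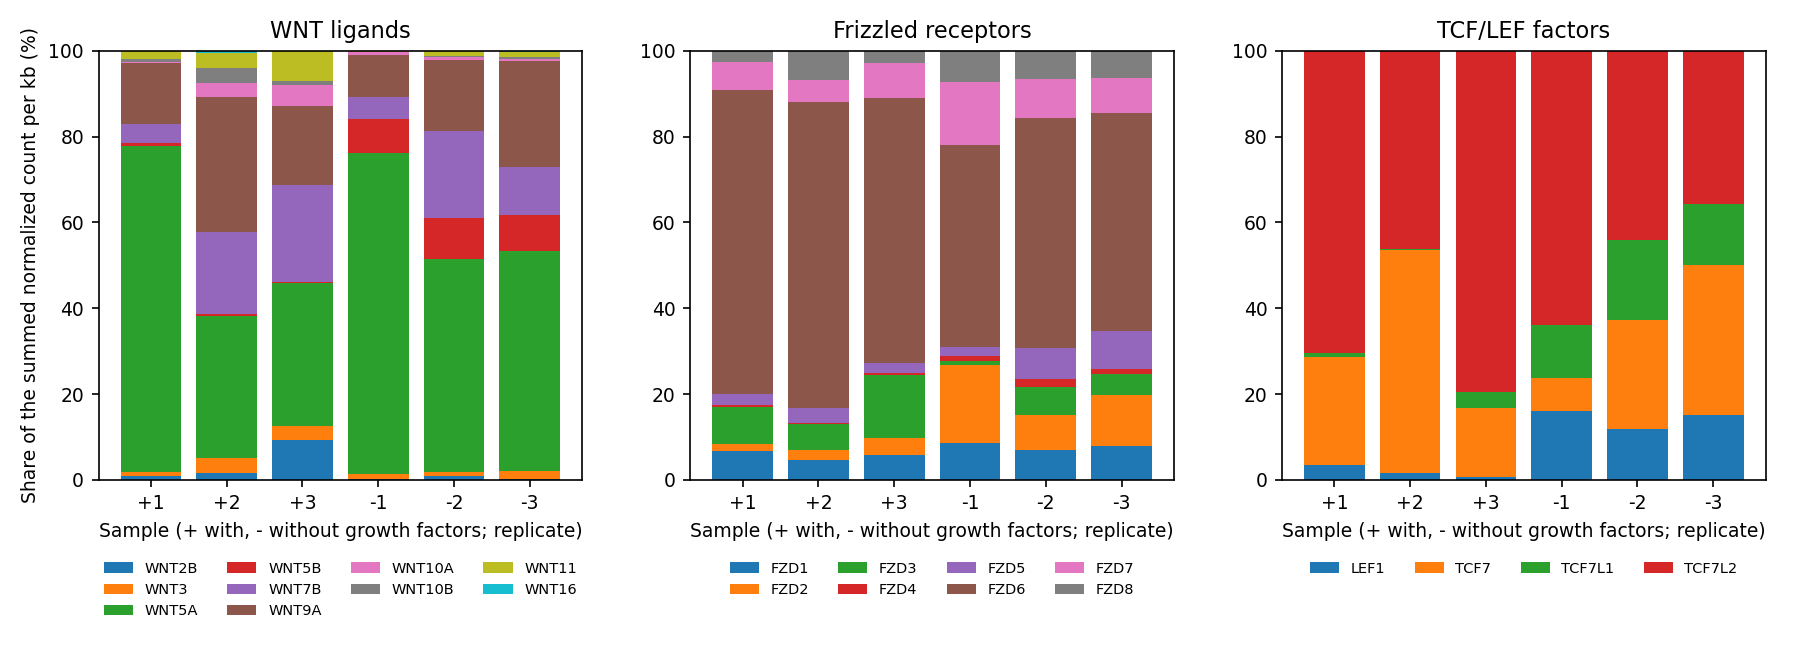
Share of the summed normalized count per kb of exon (percent) held by each WNT ligand, each Frizzled receptor and each TCF/LEF factor, in 3 stacked-bar panels with 1 bar per sample (+ with and - without growth factors, followed by the replicate number). WNT5B (0.254% to 0.785% in controls, 7.83% to 9.64% in depleted samples), FZD2 and LEF1 take larger shares in all 3 depleted samples, while WNT5A and FZD6 remain large segments in both conditions.

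The ligands were set against the output genes LEF1 and AXIN2, and against CTNNB1 and TCF7L2, which are β-catenin itself and its partner. Differences of log2 values were taken within a sample. The shift of such a difference between conditions needs no comparison of levels between genes. The WNT5A minus LEF1 difference was 7.82, 5.82 and 5.79 in controls and 6.90, 5.73 and 6.28 in depleted cells, a shift of -0.17 with overlapping samples. Against CTNNB1 the WNT5A difference shifted by 1.79, from -3.64 ± 1.05 to -1.85 ± 0.50 (SD, n = 3 each), and against TCF7L2 by 3.32, from 0.97 ± 2.28 to 4.28 ± 0.67. The WNT5A minus TCF7L2 difference was 3.30, 0.86 and -1.26 in controls. Shifts of every ligand against TCF7L2 rest in part on control replicate 3, where TCF7L2 was at 1045.7 normalized counts. WNT5B moved more than each of the 3, with shifts of 3.18 against LEF1, 5.14 against CTNNB1 and 6.67 against TCF7L2. The WNT5B minus LEF1 difference was 0.60, -0.33 and -1.41 in controls and 2.89, 2.62 and 2.90 in depleted cells, without overlap.

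WNT9A shifted by -0.92 against LEF1, 1.04 against CTNNB1 and 2.57 against TCF7L2. Its difference from LEF1 was 4.54 ± 0.41 in controls and 3.61 ± 0.69 in depleted cells (SD, n = 3 each), with overlapping samples. Against AXIN2 the shifts were -1.98 for WNT5A, 1.38 for WNT5B and -2.73 for WNT9A. These last values depend on the count of 1 added before the logarithm, as AXIN2 was under the floor in all controls. The transcripts of the non-canonical ligands and of the output genes LEF1 and AXIN2 thus were higher in the same 3 samples, and no p is given for these differences.

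The rest of the pathway was described by 10 lists holding 100 genes, of which 75 were in the table. With limma 68 were tested, 15 were called higher and 0 lower on depletion. DESeq2 on recovered reads, run on all 75 without the minimum mean, called 26 higher and 3 lower. Over all genes tested limma called 741 higher and 335 lower, and DESeq2, run on all 19198 genes, called 1400 and 830. Leaving out control replicate 3 gave 20 pathway genes higher and 3 lower (1372 and 1102 over all genes), leaving out depleted replicate 1 gave 13 and 0 (663 and 256), leaving out depleted replicate 2 gave 6 and 0 (313 and 140), and leaving out depleted replicate 3 gave 6 and 0 (341 and 126). Without the 10 genes above, 58 were tested, 8 were called higher and 0 lower, and 18 lay higher and 8 lower without overlap, with a median log2 fold change of 0.34. Over all genes tested 4.36% were called higher and 1.97% lower, and 13.5% lay higher and 12.1% lower without overlap. Genes of the lists without a row in the table were not analysed here.

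Of 8 WNT ligands tested, 3 were called higher, the ones described above, 5 lay higher without overlap, and the list median was 1.91. WNT7B and WNT3, named here after their values were seen, lay higher without overlap but were not called. WNT7B was at 67.7, 131.2 and 208.6 normalized counts in controls and 300.2, 1152.7 and 608.2 in depleted cells (limma adjusted p = 0.0564, DESeq2 adjusted p = 0.0016). The log2 fold change of WNT3 was 1.70 (limma adjusted p = 0.106, DESeq2 adjusted p = 0.019). Of 3 genes tested for WNT secretion and release, 1 was called. It was WLS, the carrier that brings lipid-modified WNT proteins to the cell surface, at 293.3, 136.5 and 244.9 normalized counts in controls and 858.5, 3711.7 and 4530.0 in depleted cells, with the lowest depleted sample above the highest control. Its log2 fold change was 3.50 ± 0.62 (SE, limma adjusted p = 0.0134), lost without depleted replicate 2 (limma adjusted p = 0.0638) or depleted replicate 3 (0.0532), and the value was 4.25 without depleted replicate 1 (limma adjusted p = 0.00258). PORCN, the acyltransferase that attaches the lipid, did not pass (log2 fold change 0.31, limma adjusted p = 0.708).

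Of 8 Frizzled receptors tested, 2 were called higher (FZD2 and FZD4), 5 were higher without overlap, and the median was 1.22. None of 5 WNT co-receptors was called, with a median of -0.06. The pseudokinases PTK7 and RYK, both known for non-canonical signaling, had log2 fold changes of 0.20 (limma adjusted p = 0.824) and -0.14 (0.835), and the value of PTK7 was -0.0043 without control replicate 2. ROR1, a receptor of WNT5A named here after its values were seen, was at 926.1, 1030.5 and 555.8 normalized counts in controls and 190.4, 415.7 and 250.4 in depleted cells. Every depleted sample was below every control, opposite to WNT5A itself, but the log2 fold change of -1.58 ± 0.39 (SE) missed the threshold (limma adjusted p = 0.0521), and DESeq2 called it lower (adjusted p = 0.00809).

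Secreted antagonists were called in 2 of 5 genes tested, both higher, with a list median of 2.31. DKK3, a divergent member of the Dickkopf family, was at 8.8, 2.3 and 6.9 normalized counts in controls and 466.8, 162.6 and 301.9 in depleted cells, with a log2 fold change of 5.49 ± 0.62 (SE, limma adjusted p = 0.00212) that passed in all 6 fits leaving out 1 sample and was 4.23 with 10 added before the logarithm. SFRP4, a secreted protein with a Frizzled-like domain, was at 0 in all controls and at 11.0, 22.3 and 35.8 in depleted cells, at least 8.15-fold higher (floor of 3 reads in each control library). Its call (limma adjusted p = 0.0104) was lost without depleted replicate 2 (0.0716) or depleted replicate 3 (0.0747). DKK1, an inhibitor of LRP co-receptors named after its values were seen, was at 6072.0, 8223.5 and 3939.9 in controls and 1504.7, 3351.1 and 2953.7 in depleted cells, lower without overlap but not called (log2 fold change -1.24, limma adjusted p = 0.129).

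None of 3 genes tested in the R-spondin axis was called, and they did not share a direction, with a median of -1.05. LGR4, a receptor for R-spondins, was at 4672.1, 2957.9 and 2481.0 normalized counts in controls and 1391.2, 1684.4 and 1227.5 in depleted cells. The groups did not overlap, and the log2 fold change of -1.19 ± 0.32 (SE) missed the threshold (limma adjusted p = 0.0667), though it passed without control replicate 3 (limma adjusted p = 0.0235) and with DESeq2 (adjusted p = 0.0157). RNF43, the ubiquitin ligase that removes Frizzled from the surface, was not called (log2 fold change -1.05, limma adjusted p = 0.434), and its value was -0.39 without depleted replicate 1. LGR6, another R-spondin receptor named after its values were seen, was at 0, 2.9 and 0 normalized counts in controls and 52.2, 11.8 and 8.9 in depleted cells, higher without overlap. Its log2 fold change of 3.58 ± 0.94 (SE) missed the threshold (limma adjusted p = 0.064), and DESeq2 called it (adjusted p = 0.00886).

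Of 12 Dishevelled and destruction complex genes tested, AXIN2 was the only one called, and the median was 0.29. CSNK1A1, the kinase that primes β-catenin for destruction, was not called (log2 fold change -0.12, limma adjusted p = 0.863), and its value was 0.02 after quantile normalization. Among 12 TCF/LEF factors and nuclear partners, 2 were called higher, LEF1 and TLE4, with a median of 0.56. TLE4, a Groucho-type co-repressor that binds TCF/LEF factors, was at 309.6, 145.3 and 370.9 normalized counts in controls and 1372.0, 1144.8 and 874.3 in depleted cells. The change of 2.12 ± 0.40 in log2 (SE, limma adjusted p = 0.0187) no longer passed without depleted replicate 1 (limma adjusted p = 0.0565), depleted replicate 2 (0.0837) or depleted replicate 3 (0.0511).

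The list of β-catenin feedback targets had 7 genes tested, of which 4 were called higher and 0 lower. The log2 fold change was above 0 in 5 of the 7 and below 0 in the rest. The list median of 2.59 was the value of TNFRSF19. It could not move when the 2 genes under the floor in controls were set to their lower bounds, as both bounds lie above it. Beside AXIN2 and LEF1 the genes called were APCDD1 and TNFRSF19. APCDD1, a membrane protein that inhibits WNT signaling, was at 0 in all 3 controls and at 89.7, 51.1 and 51.4 normalized counts in depleted cells, at least 22.7-fold higher (limma adjusted p = 0.00168), and was called in all 6 fits that left out 1 sample. TNFRSF19, a receptor of the TNF family, was at 58.9, 16.4 and 12.8 in controls and 169.3, 155.4 and 116.3 in depleted cells. Its call was marginal (log2 fold change 2.59 ± 0.62 (SE), limma adjusted p = 0.0448) and was lost with edgeR and without control replicate 2 (limma adjusted p = 0.125), depleted replicate 1 (0.116), depleted replicate 2 (0.165) or depleted replicate 3 (0.13), and the value was 3.24 without control replicate 1.

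The 3 feedback genes in the table under the minimum mean were left out of the main limma test. LGR5 was at 0 in all controls and 2.7, 29.5 and 11.2 normalized counts in depleted cells, NOTUM was at 0, 0 and 1.0 against 6.4, 19.0 and 11.2, and ZNRF3 was at 2.5, 8.8 and 15.7 against 14.6, 5.9 and 6.7. LGR5 marks stem cells in several epithelia, NOTUM removes the lipid from WNT proteins and ZNRF3 acts like RNF43. The first 2 lay higher without overlap, and ZNRF3 overlapped. DESeq2, run without the minimum mean, gave adjusted p of 0.00265 for LGR5, 0.0101 for NOTUM and 0.996 for ZNRF3. LGR5 was at only 3 reads in depleted replicate 1 and 5 in depleted replicate 3.

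In the planar polarity arm 2 of 9 genes tested were called higher and 0 lower, with a median of 0.43, while 3 genes lay higher and 3 lower without overlap. PRICKLE1, a core component of that arm, was at 840.9, 454.6 and 529.2 normalized counts in controls and 2051.2, 3963.5 and 3380.7 in depleted cells, with a log2 fold change of 2.36 ± 0.36 (SE, limma adjusted p = 0.00725), and was called in all 6 fits that left out 1 sample. DAAM2, a formin that binds Dishevelled, was at 15.0, 2.3 and 32.5 in controls and 195.9, 150.1 and 129.7 in depleted cells. Its log2 fold change was 3.69 ± 0.81 (SE, limma adjusted p = 0.0326), and the call was lost with edgeR and without control replicate 1 (limma adjusted p = 0.0831), depleted replicate 1 (0.089), depleted replicate 2 (0.116) or depleted replicate 3 (0.102). The value was 2.76 without control replicate 2 and 2.82 with 10 added before the logarithm. The 3 genes that lay lower, named after their values were seen, were the polarity cadherins CELSR1 (log2 fold change -0.97, limma adjusted p = 0.14) and CELSR2 (-1.42, 0.245) and the scaffold SCRIB (-0.54, 0.356). DESeq2 called CELSR2 (adjusted p = 0.0444).

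**Figure D4:**
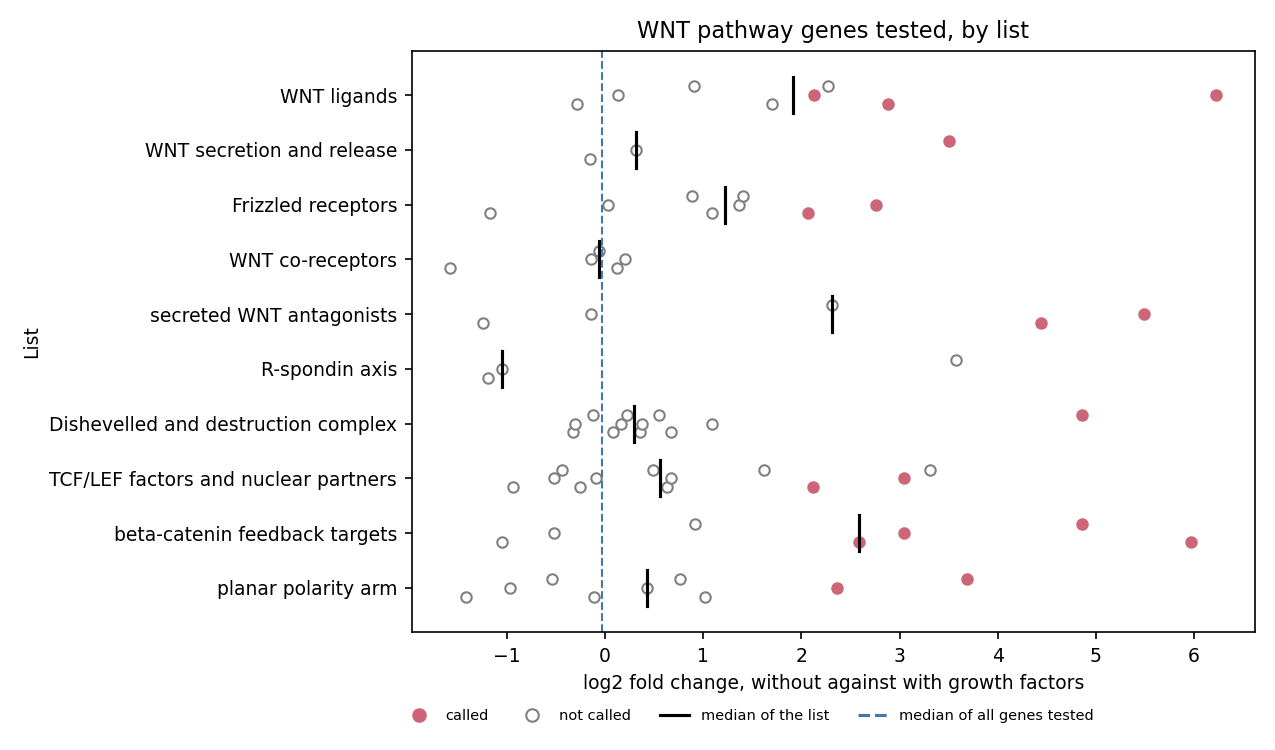
Log2 fold change without against with growth factors (limma, horizontal axis) of every pathway gene tested, 1 line per list, with genes called as filled red circles, others as open circles, the median of each list as a black bar and the median of all genes tested (-0.03) as a dashed blue line. All filled circles lie to the right of 0, and the list medians run from -1.05 (R-spondin axis) to 2.59 (β-catenin feedback targets).

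Single libraries often held the extremes of their group in these lists. Control replicate 3 was the highest control in 39 of the 68 pathway genes tested (57.4%), against 41.3% of all genes, and depleted replicate 1 was the lowest depleted sample in 35 of 68 (51.5%), against 35.5% of all genes. The pathway counts without each of these libraries are given above, and their part in the values of single genes was not tested beyond the fits that leave them out.

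The genes most like WNT5A, WNT5B and LEF1 over the 6 samples were found by the root mean square distance between centred log2 values, among genes tested with a mean of at least 100. For WNT5B they were POSTN (distance 0.275), IGFBP7 (0.409) and MMP2 (0.494), which encode the matrix protein periostin, a secreted IGF-binding protein and a matrix metalloprotease. Their log2 fold changes were 5.94, 5.94 and 6.50 beside 6.23 for WNT5B. For LEF1 they included FLRT2 (0.289), a membrane protein of cell adhesion and guidance, and DAB2 (0.295), an endocytic adaptor, with log2 fold changes of 3.17 and 2.90 beside 3.05. For WNT5A they were SNORA23 (0.377), SLC1A4 (0.392) and IFIT2 (0.41), a small nucleolar RNA, an amino acid transporter and an interferon-induced gene, with 2.25, 2.81 and 2.33 beside 2.88. SNORA23 and SLC1A4 were not called (limma adjusted p = 0.0695 for each), and IFIT2 was (limma adjusted p = 0.0248). The comparison ran over 11642 other genes for WNT5A and WNT5B and 11643 for LEF1, and the distance describes likeness in these 6 libraries alone.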

How the data were processed

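RNA-Seq was measured in 6 MCF10A samples, 3 per condition as labelled; the design text of the series gives 2 replicates. The authors removed ribosomal RNA, prepared stranded libraries, read 100 bases from 1 end, and mapped the reads to hg38 for counting on Gencode v22; the submitters' processing notes name cutadapt 1.6, TopHat2, HTSeq 0.6, DESeq2 1.8.1 and R 3.2.0. What was deposited is a signal for each gene: reads divided by DESeq2 size factors and not by length. How genes with few reads were removed is not described. All values were whole multiples of 1 read within 0.01, so reads could be recovered. Depth was 7472418 to 28672630 reads on genes, which limits genes near the floor of 3 reads.

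Gene names and coordinates came from Gencode v44, which names 18913 of 19198 identifiers; its exons gave lengths per kb. limma 3.58.1 (R 4.3.3, eBayes with a trend) was run on log2(signal + 1) for the 16988 genes whose mean reached 10, and tested on simulated data. edgeR 4.0.16, DESeq2 1.42.0 on recovered reads, other pseudocounts, filters, scalings and thresholds, and leaving out each sample were alternatives. The members and pathway lists were chosen with earlier results of these data known. Named were the 10 members, up to 4 called genes of each list with the largest change, the 2 genes with the highest mean in lists with fewer than 2 called, and the 3 genes most like WNT5A, WNT5B and LEF1; 1 gene of this rule is not reported here, and others are marked as named after their values were seen.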

Additional observations from a re-analysis of the deposited data

How the results depend on the processing

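The numbers of genes called were 1076 over all genes, 7 of the 10 WNT genes and 15 over the pathway lists. With DESeq2 on recovered reads, run without the minimum mean, they were 2230, 9 and 29, and with edgeR (TMM) 971, 7 and 13. At an adjusted p under 0.1 they were 1706, 7 and 20, and at an adjusted p under 0.01 they were 418, 3 and 6. Leaving out 1 sample in turn gave 453 to 2474, 3 to 7 and 6 to 23, with the highest number over all genes without control replicate 3. Deviations from the group means were not positively correlated between same-numbered samples (-0.073, -0.283 and -0.323). With 3 samples per group these deviations depend on each other, so they cannot show whether same-numbered samples were prepared together. A replicate block gave 967, 6 and 15 genes, with FZD4 lost (limma adjusted p = 0.0859). Of 404 values of 24 named genes under the alternatives, 357 kept direction and call, 39 lost the call, 5 gained it and 3 reversed: TCF7L2 without control replicate 3 (0.43, with -0.9 as the lowest value when 1 sample was left out), PTK7 without control replicate 2 (-0.0043, with 0.49 as the highest) and CSNK1A1 after quantile normalization (0.02). The cause of these differences was not tested. LEF1 and AXIN2 could not be tested with a mean of at least 50, which left 5 of the 10 genes called. The median log2 fold change of all genes ran from -0.11 to 0.02 over the scalings. Depth limits the controls of WNT5B, LEF1, AXIN2, SFRP4 and APCDD1, which were near or under 3 reads.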
